A study of Mus musculus with 12 samples.

Results

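The genes described here are 10 immediate-early genes, found by their symbols among the 57278 genes of a count table: the FOS family (Fos, Fosb, Fosl1 and Fosl2), the JUN family (Jun, Junb and Jund), Atf3, Egr1 and Ier3. They were measured by RNA sequencing in 3 lines of mouse pancreatic tumor cells, DDKC_9750, DDKC_9790 and DDKC_9804. Each line was isolated from a DDKC mouse, which carries Dkk3-/- and Ptf1aCre/+, so every library, treated or not, came from cells without functional Dkk3. Cre is driven by Ptf1a, which is active in the pancreas, while the Dkk3 deletion is ubiquitous. Each line was either untreated or given rDKK3, commercial recombinant soluble DKK3 protein, in medium with serum, and the comparison asks how transcripts of Dkk3-null tumor cells differ when the protein is supplied from outside. The labels give neither the dose nor the time of rDKK3 for these samples, nor the age of the mice, and describe no vehicle for the untreated cells. Line, condition and 2 library numbers make 12 libraries, 2 for each line and condition.

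FOS, JUN and ATF proteins are leucine zipper factors that pair with each other to form AP-1, which binds DNA at TGA-containing sites. FOS proteins need a partner such as a JUN protein to bind, while JUN proteins can also pair among themselves. Growth factors and stress induce most of these genes within minutes through MAP kinases and the factors SRF and ELK, which act at a CArG box in promoters such as that of Fos, and the transcripts then decay fast. Fosl1 and Fosl2 are slower and longer lasting members, and Fosl1 is known to follow sustained ERK activity. EGR1 is a zinc finger factor of the same early response. IER3 is no DNA-binding factor but a small protein induced by stress and growth factors that affects survival and ERK signaling.

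The untreated libraries held between 7520741 and 24541083 counts and the rDKK3 libraries between 3822987 and 11567095. The 2 libraries of a line and condition agree within sampling noise when each gene may shift by a common amount from lower to higher library numbers (mean deviance 0.782 per degree of freedom over 12979 genes, and 6.43 without that shift). They were therefore summed and counted as 1 sample, which leaves 6 samples and n = 3 lines per condition. Levels are CPM, counts relative to the library total scaled by TMM, and 3 counts correspond to between 0.0855 and 0.291 CPM in the summed samples, for counting error only. Dkk3 had 1 count in all, in 1 rDKK3 library of DDKC_9750. All 8 epithelial and ductal markers reached 1 CPM in at least 1 sample, with summed levels of 5328 to 9784 CPM in untreated and 4242 to 8085 CPM in rDKK3 samples, although Epcam lay at only 0.410 to 2.04 CPM. Of the acinar markers Ptf1a, Cpa1, Cel and Amy2b were at 0 in every sample, as were the leukocyte markers Adgre1, Lyz2 and Cd3e and the fibroblast marker Fap. In these bulk samples, fewer cells that express a gene and less of its RNA per cell cannot be told apart.

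The promoters of Fos and Fosb are shown because these are the members whose sequence between 350 and 51 bases before the annotated start held a CArG box, the letters CC, then 6 letters A or T, then GG, searched on both strands. That was 2 of 10 members, against 1.64% of 21652 protein-coding promoters. The annotated start is the outermost one of each gene, for members and background alike. For genes with several transcripts, such as Egr1 with 2 and Atf3 with 4, the window may miss the promoter in use. A window without a motif therefore does not show that the gene lacks it. The box began 309 bases before the start of Fos and 266 bases before that of Fosb. The sequences are from the GRCm39 genome, Fos from the plus strand at chr12:85520314-85520613 and Fosb from the minus strand at chr7:19044027-19044326, 5′ to 3′ toward the gene, with the box in capitals.
Fos: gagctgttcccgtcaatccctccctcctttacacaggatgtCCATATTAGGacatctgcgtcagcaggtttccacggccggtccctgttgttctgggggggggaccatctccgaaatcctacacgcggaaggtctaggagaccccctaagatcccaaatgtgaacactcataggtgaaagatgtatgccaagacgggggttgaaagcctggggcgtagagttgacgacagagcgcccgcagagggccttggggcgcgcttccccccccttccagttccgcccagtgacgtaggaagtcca
Fosb: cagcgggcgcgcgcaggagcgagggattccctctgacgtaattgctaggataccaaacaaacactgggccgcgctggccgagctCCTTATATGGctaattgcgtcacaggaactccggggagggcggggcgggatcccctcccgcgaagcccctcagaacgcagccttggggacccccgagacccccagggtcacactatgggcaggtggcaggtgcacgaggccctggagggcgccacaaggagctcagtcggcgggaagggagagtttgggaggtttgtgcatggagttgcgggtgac

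The letters TGACG, part of the full cAMP response element TGACGTCA, was in 9 of 10 windows, all but that of Ier3, against 17.6% of promoters. TGACGTCA itself was in the window of Jund alone, against 1.18%. The AP-1 letters TGANTCA were in 0 of 10 windows, against 7.37%, which says only that these letters are not in these 300 bases. Matches are descriptions of sequence and not measured binding.

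All 10 members passed the filter on low counts and were tested with 15214 genes in all. Per kilobase of exon, the untreated levels were in the order Junb, Ier3, Jund, Egr1, Fosl1, Jun, Fos, Fosl2, Fosb and Atf3. Junb, at 379 ± 80.0 CPM per kilobase (SD, n = 3), and Ier3, at 326 ± 16.9, overlapped over the lines and stood above Jund at 219 ± 66.7. Egr1 followed at 62.8 ± 37.5, Fosl1 at 40.0 ± 25.3, Jun at 26.9 ± 11.5 and Fos at 22.3 ± 5.93, and each of these overlapped the next. Fosl2 lay at 14.5 ± 0.975, below Fos in each line's range of values, 13.5 to 15.5 against 15.7 to 27.2. Fosb, at 4.33 ± 2.61, and Atf3, at 3.55 ± 1.30, were lowest and overlapped.

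**Figure D1:**
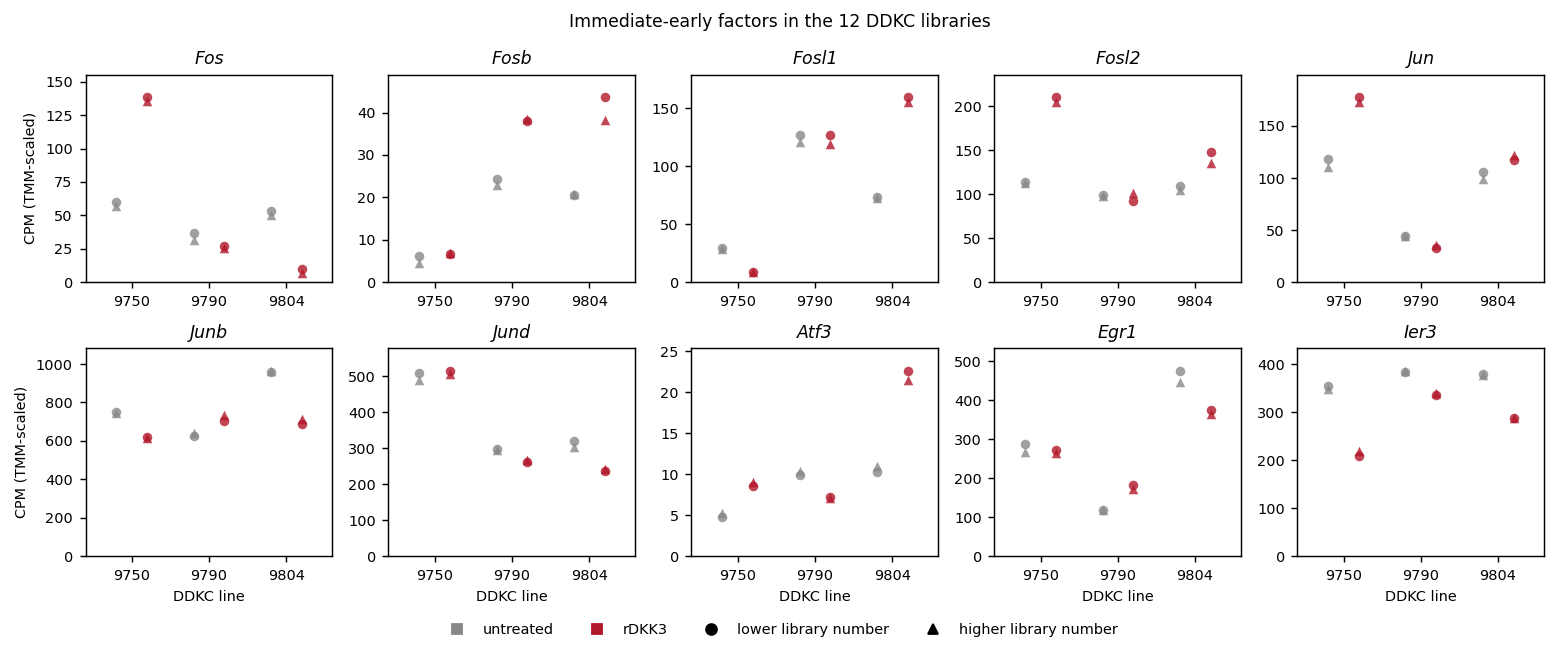
TMM-scaled CPM of each gene (vertical axes, starting at 0) by DDKC line, untreated in gray and rDKK3 in red, with 1 point per library. The 2 libraries of each sample lie close together, while the conditions part upward in some lines and downward in others for 7 of the 10 genes, as for Fos in DDKC_9750 (57.6 against 137 CPM summed) and DDKC_9804 (50.9 against 8.12 CPM).

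Fos (ENSMUSG00000021250.14, chr12:85520664-85524047), the founding FOS protein, differed between conditions in opposite directions in the lines by value. Its level was 57.6 CPM in untreated and 137 CPM in rDKK3 cells of DDKC_9750, 33.3 and 26.2 CPM in DDKC_9790, and 50.9 and 8.12 CPM in DDKC_9804. Treated cells thus held both the highest and the lowest level of the 6 samples, and the conditions overlapped. In DDKC_9804 the counts were 600 and 1186 in the 2 untreated libraries and 45 and 54 in the rDKK3 libraries, a level 6.27-fold lower (95% exact Poisson interval 5.12 to 7.75, counting error only). In DDKC_9750 it was 2.37-fold higher (2.21 to 2.55). Over the 3 lines the log2 fold change was -0.48 ± 0.75 (SE), with an adjusted p of 0.862 by edgeR's quasi-likelihood test, and without line DDKC_9804 it was 0.47.

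Fosb (ENSMUSG00000003545.4, chr7:19036621-19043976), a close relative of Fos, was higher with rDKK3 in every line by value. It lay at 5.06 CPM untreated and 6.69 CPM with rDKK3 in DDKC_9750, at 23.3 and 38.5 CPM in DDKC_9790, and at 20.7 and 40.4 CPM in DDKC_9804. The counting interval of the ratio included 1 in DDKC_9750 (1.32, 0.980 to 1.77, on 152 and 69 counts) and not in DDKC_9790 (1.65, 1.47 to 1.85) or DDKC_9804 (1.95, 1.73 to 2.18). Line DDKC_9750 stayed below both other lines in either condition, so the conditions overlapped over the lines. Over the 3 lines its log2 fold change was 0.71 ± 0.16 (SE), with an unadjusted p of 0.00598 and an adjusted p of 0.597 by edgeR's quasi-likelihood test over 3 lines.

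Fosl1 (ENSMUSG00000024912.7, chr19:5497575-5505974) encodes FRA1. It was at 28.4 CPM untreated and 8.53 CPM with rDKK3 in DDKC_9750, at 123 CPM in both conditions of DDKC_9790, and at 72.7 and 157 CPM in DDKC_9804. This was the opposite order to Fos in DDKC_9750 and DDKC_9804, where Fosl1 was 3.33-fold lower (2.67 to 4.20) and 2.16-fold higher (2.04 to 2.30) with rDKK3. In DDKC_9790 the ratio was 1.00 (0.949 to 1.06). The log2 fold change over the lines was -0.11 ± 0.52 (SE), with an adjusted p of 0.956 by edgeR's quasi-likelihood test, and 0.56 without line DDKC_9750. Ccdc85b overlaps Fosl1 on the opposite strand, and the authors counted reads by strand.

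Fosl2 (ENSMUSG00000029135.11, chr5:32293145-32315186) encodes FRA2. It was at 112 CPM untreated and 207 CPM with rDKK3 in DDKC_9750, at 98.1 and 98.3 CPM in DDKC_9790, and at 106 and 140 CPM in DDKC_9804. The untreated lines lay close together, and the treated value of DDKC_9790 lay among them. The ratio was 1.85 (1.75 to 1.95) in DDKC_9750 and 1.32 (1.25 to 1.40) in DDKC_9804, against 1.00 (0.942 to 1.07) in DDKC_9790. The fit over the lines gave a log2 fold change of 0.43 ± 0.19 (SE), with an adjusted p of 0.623 by edgeR's quasi-likelihood test.

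Jun (ENSMUSG00000052684.6, chr4:94937271-94940459), the inducible partner of Fos, lay at 113 CPM untreated and 175 CPM with rDKK3 in DDKC_9750, at 44.2 and 34.8 CPM in DDKC_9790, and at 101 and 120 CPM in DDKC_9804. Line DDKC_9790 was the lowest in both conditions, and the conditions overlapped. The log2 difference had the sign of the Fos difference in DDKC_9750 (0.63) and DDKC_9790 (-0.34) and the opposite sign in DDKC_9804 (0.25). Over the lines the log2 fold change was 0.19 ± 0.20 (SE), with an adjusted p of 0.801 by edgeR's quasi-likelihood test, and -0.032 without line DDKC_9750. Junos lies on the opposite strand of Jun.

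Junb (ENSMUSG00000052837.8, chr8:85701113-85705347), a JUN protein that can restrain JUN activity, had the highest mean level per kilobase of the 10 genes, though Ier3 was above it in untreated DDKC_9790 and Jund in treated DDKC_9750. It was at 742 CPM untreated and 618 CPM with rDKK3 in DDKC_9750, at 638 and 728 CPM in DDKC_9790, and at 961 and 701 CPM in DDKC_9804. The treated samples lay within the range of the untreated ones except DDKC_9750. In the fit its log2 fold change was -0.17 ± 0.16 (SE), with an adjusted p of 0.774 by edgeR's quasi-likelihood test. Prdx2 overlaps Junb on the opposite strand.

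Jund (ENSMUSG00000071076.9, chr8:71151599-71153265) is the JUN gene known for steady rather than induced expression. Its levels were 494 CPM untreated and 509 CPM with rDKK3 in DDKC_9750, 295 and 268 CPM in DDKC_9790, and 308 and 239 CPM in DDKC_9804. Its log2 difference varied over the lines by 0.41, the least of the 10 genes. The lines together gave a log2 fold change of -0.15 ± 0.13 (SE), with an adjusted p of 0.758 by edgeR's quasi-likelihood test. Gm11175 lies on its opposite strand.

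Atf3 (ENSMUSG00000026628.14, chr1:190902493-190950236) encodes a stress-induced ATF protein that pairs with JUN proteins. It was at 5.02 CPM untreated and 8.82 CPM with rDKK3 in DDKC_9750, at 10.2 and 7.17 CPM in DDKC_9790, and at 10.7 and 21.9 CPM in DDKC_9804. The ratio was 1.76 (1.34 to 2.29) in DDKC_9750, 0.699 (0.562 to 0.868) in DDKC_9790 and 2.04 (1.74 to 2.39) in DDKC_9804. The treated value of DDKC_9790 lay below 2 of the 3 untreated samples, and the log2 fold change over the lines was 0.45 ± 0.35 (SE), with an adjusted p of 0.729 by edgeR's quasi-likelihood test. Gm55866 overlaps Atf3 on the opposite strand.

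Egr1 (ENSMUSG00000038418.9, chr18:34992876-34998037) was at 273 CPM untreated and 267 CPM with rDKK3 in DDKC_9750, at 118 and 176 CPM in DDKC_9790, and at 456 and 369 CPM in DDKC_9804. Line DDKC_9790 was the lowest and DDKC_9804 the highest in both conditions, with the treated values closer together. The counting interval of the ratio included 1 in DDKC_9750 (0.980, 0.938 to 1.02). Its log2 fold change was 0.080 ± 0.19 (SE), with an adjusted p of 0.911 by edgeR's quasi-likelihood test, and -0.15 without line DDKC_9790.

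Ier3 (ENSMUSG00000003541.7, chr17:36132576-36133815) was the gene whose 3 treated samples all lay below all 3 untreated ones. It was at 349 CPM untreated and 215 CPM with rDKK3 in DDKC_9750, at 386 and 340 CPM in DDKC_9790, and at 377 and 287 CPM in DDKC_9804. The lowest untreated and the highest treated sample, 349 and 340 CPM, came from different lines and were close. Of all genes tested, 4.35% had conditions that did not overlap, and Ier3 was 1 such member of 10. The log2 fold change was -0.42 ± 0.14 (SE), with an unadjusted p of 0.0289 and an adjusted p of 0.597 by edgeR's quasi-likelihood test.

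**Figure D2:**
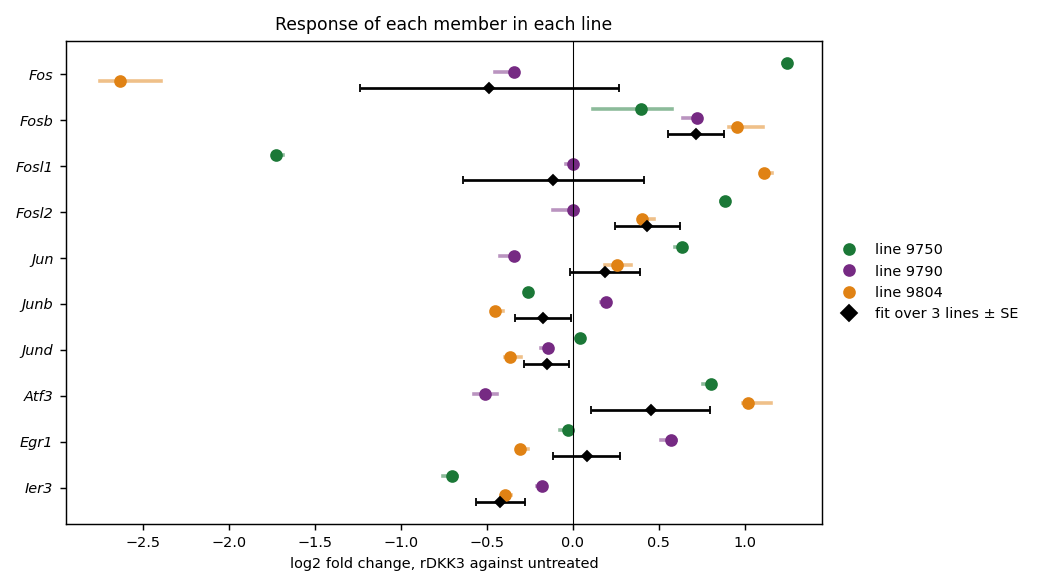
Log2 fold change of rDKK3 against untreated cells (horizontal axis) of each gene, with a colored point for each line from the summed counts, a colored bar between the values of the lower and higher library numbers, and a black diamond with a bar of ± SE for the fit over 3 lines. Fos and Fosl1 are spread over both sides of 0 in opposite orders, Fosb lies above 0 and Ier3 below 0 in every line.

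The first comparison asked whether rDKK3 changed these genes in the same way in the 3 lines. With the line as a block, 3 lines per condition were compared by edgeR's quasi-likelihood test. After adjustment 0 of the 10 genes passed the threshold of 0.05, where 1 of 15214 genes (Lcn2, 0.00657%) did. DESeq2 called 0 of the 10 as well, against 96 of 15214 genes. In edgeR's fit Fosb and Ier3, 2 of 10, had an unadjusted p under 0.05, as did 8.29% of all genes tested. The median log2 fold change was -0.017 over the members and -0.0063 over all genes tested. When the 12 libraries were entered unsummed, which takes the 2 libraries of a sample as separate replicates, 3 members passed and 16.7% of genes did. These were Fosb (adjusted p 0.00136 by edgeR) and Fosl2 (0.0341) among the 6.93% of genes that were higher, and Ier3 (0.00405) among the 9.72% that were lower. Since library repeats of 1 sample carry no spread between cultures, those values rest on counting noise and the spread over lines together.

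Directions were compared next. Fosb and Fosl2 were higher with rDKK3 in all 3 lines, 2 of 10 against 14.4% of genes tested, and Ier3 was lower in all 3, 1 of 10 against 18.5%. The difference of Fosl2 in DDKC_9790 was 0.0028 on the log2 scale and below 0 when DESeq2's size factors replaced TMM. The other 7 members were higher in some lines and lower in others, as were 67% of genes tested. With rDKK3, 6 members were higher in DDKC_9750, 5 in DDKC_9790 and 5 in DDKC_9804, against 48.0%, 49.9% and 46.3% of genes, and with DESeq2's size factors the count in DDKC_9790 was 3, because Fosl1 and Fosl2 were then below 0. The sign was the same in the lower and the higher library numbers for 28 of 30 pairs of gene and line. The exceptions were Fosl1 and Fosl2 in DDKC_9790.

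The second comparison asked how far the response differed between lines. Each line has 1 sample per condition, so no spread between samples is left against which a difference between lines could be tested, and the values are a description. The log2 differences spread over 3.88 for Fos, 2.84 for Fosl1 and 1.53 for Atf3, and over 0.56 for Fosb and 0.52 for Ier3. The median spread was 0.88 over the members and 0.57 over all genes tested. Counting intervals excluded a ratio of 1 for 7 members in DDKC_9750, 8 in DDKC_9790 and 10 in DDKC_9804, against 48.4%, 45.2% and 56.7% of genes tested, and they narrow with a gene's counts. An interaction of line and treatment over the 12 libraries, which sets these differences against the noise between library repeats alone, called all 10 members and 61.3% of genes with edgeR. Of the members, Fosb was not called without the library number as a term, with DESeq2 or without line DDKC_9750 or DDKC_9804, and Atf3 not without DDKC_9790. A lasting trait of a line cannot be told apart from the state of that culture.

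The third comparison, between the lines in both conditions, found 4 members with an adjusted p under 0.05 by edgeR's quasi-likelihood test, against 32.2% of genes tested. Fosb was lowest in DDKC_9750 (adjusted p 0.00523), Jun (0.0146) and Egr1 (0.0213) were lowest in DDKC_9790, and Jund (0.0201) was highest in DDKC_9750. Fosl1 had an adjusted p of 0.0530, with DDKC_9750 at 28.4 and DDKC_9790 at 123 CPM in untreated cells. Fos had 0.190, Atf3 0.130, Fosl2 0.157, Ier3 0.233 and Junb 0.433. The count was 1 without line DDKC_9790, 2 without DDKC_9750 and 5 without DDKC_9804, where 1220, 4753 and 4345 of 15214 genes were called.

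The makeup of the FOS family was described per length, with no test. Fos was 45.9% of the family's summed CPM per kilobase in untreated and 64.9% in treated DDKC_9750 cells, 15.6% and 12.1% in DDKC_9790, and 29.0% and 3.25% in DDKC_9804. Fosl1 took 25.7% and 4.60% in DDKC_9750, 65.0% and 64.6% in DDKC_9790, and 46.9% and 71.4% in DDKC_9804. With rDKK3, Fos thus made up most of the family in DDKC_9750 and Fosl1 in DDKC_9790 and DDKC_9804. Fosl2 held between 13.3% and 28.7%, and Fosb between 1.78% and 9.97%. The family sum was 59.3 CPM per kilobase untreated and 99.5 with rDKK3 in DDKC_9750, 101 and 102 in DDKC_9790, and 83.1 and 118 in DDKC_9804.

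In the JUN family Junb was 45.5% to 68.3% of the sum, Jund 27.1% to 46.2% and Jun 2.08% to 8.30%. The share of Junb was 52.1% untreated and 45.5% with rDKK3 in DDKC_9750, 61.9% and 67.3% in DDKC_9790, and 68.3% and 65.3% in DDKC_9804. The sum was 692 CPM per kilobase untreated and 660 with rDKK3 in DDKC_9750, 501 and 525 in DDKC_9790, and 683 and 522 in DDKC_9804. The ratio of FOS to JUN transcripts per kilobase was 0.0857 and 0.151 in DDKC_9750, 0.202 and 0.194 in DDKC_9790, and 0.122 and 0.226 in DDKC_9804. JUN transcripts exceeded FOS transcripts in all 6 samples. These shares have 1 value per line and condition and were not tested, and transcript levels do not give protein.

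**Figure D3:**
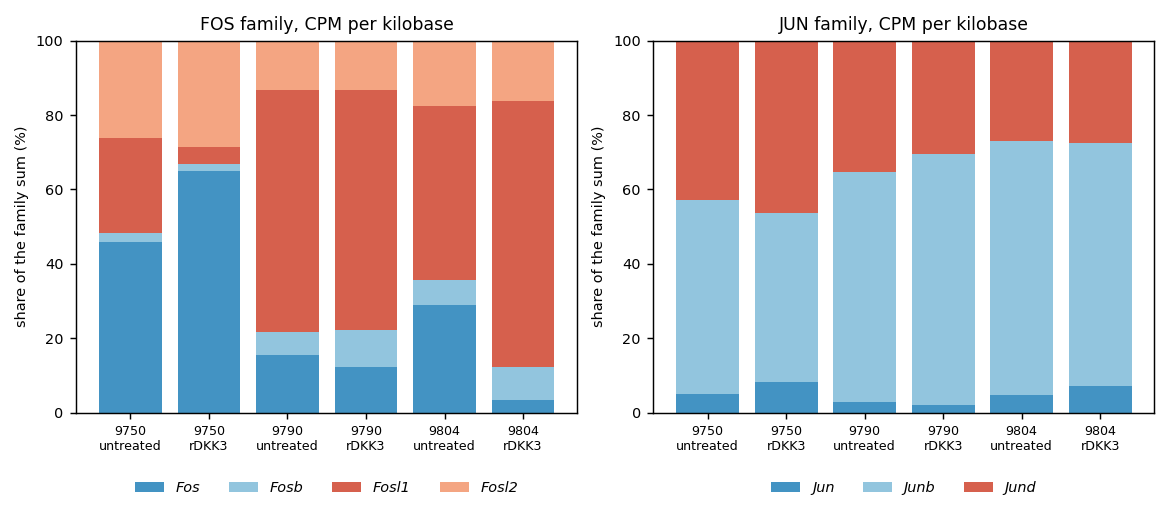
Share of each gene in the summed CPM per kilobase of the FOS family (left) and the JUN family (right) in percent (vertical axes, 0 to 100) for each line and condition, without error bars because each bar is 1 summed sample. With rDKK3 the share of Fos is 64.9% in DDKC_9750 and 3.25% in DDKC_9804, while that of Fosl1 is 4.60% and 71.4%.

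Genes around AP-1 were then read as lists, and in each of the 6 lists 0 genes passed in the summed fit of edgeR, against 0.00657% of genes. The other dimer partners of AP-1 had 8 of 11 genes tested and a median log2 fold change of 0.15. Maf, a large MAF factor, was lower in every line, from 25.2 to 10.5 CPM in DDKC_9750, 83.8 to 55.4 CPM in DDKC_9790 and 29.4 to 13.3 CPM in DDKC_9804, with a log2 fold change of -0.99 ± 0.17 (SE) and an adjusted p of 0.597 by edgeR. Mafk, a small MAF partner, was at 0.40 ± 0.14 and Jdp2, a repressor of AP-1, at 0.32 ± 0.27 on the log2 scale. In the unsummed fit 2 of 8 passed as higher and 1 as lower, against 6.93% and 9.72% of all genes.

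Of the 30 other immediate-early genes 28 were tested, with a median log2 fold change of 0.040 and 15, 15 and 17 of them higher in DDKC_9750, DDKC_9790 and DDKC_9804. Of these 28, 3 passed as higher and 2 as lower in the unsummed fit, near the shares of all genes (6.93% and 9.72%). Cebpd, a C/EBP factor of acute-phase responses, was at 94.2 CPM untreated and 440 CPM with rDKK3 in DDKC_9750, at 11.4 and 11.7 CPM in DDKC_9790, and at 12.8 and 26.2 CPM in DDKC_9804, with a log2 fold change of 1.15 ± 0.42 (SE). Klf2, a zinc finger factor, had a log2 fold change of -0.88 ± 0.38, and Plk2, a polo-like kinase, one of 0.62 ± 0.29.

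The 29 genes of the ERK, JNK and p38 cascade with SRF and ELK factors, which transmit the signal to these promoters, were all tested and had a median log2 fold change of 0.050. Their medians in the lines were close to 0, with 15, 12 and 15 genes higher in DDKC_9750, DDKC_9790 and DDKC_9804. Braf was at 0.41 ± 0.16, Rps6ka2 at 0.39 ± 0.22 and Map3k1 at -0.41 ± 0.17 on the log2 scale (SE). In the unsummed fit 1 of 29 passed as higher and 2 as lower, shares no larger than those of all genes (6.93% and 9.72%).

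The feedback inhibitors of MAP kinase signaling, DUSP phosphatases, SPRY and SPRED proteins and others, are themselves induced by ERK. Of 18 tested, 3 were higher with rDKK3 in DDKC_9750, 12 in DDKC_9790 and 13 in DDKC_9804, and their median log2 differences were -0.65, 0.13 and 0.28, against -0.014, 0 and -0.041 over all genes. Over the lines their median was -0.0034. Spry1 was at 145 CPM untreated and 86.4 CPM with rDKK3 in DDKC_9750, at 114 and 89.4 CPM in DDKC_9790, and at 107 and 34.1 CPM in DDKC_9804, with a log2 fold change of -0.90 ± 0.26 (SE). Dusp6, a phosphatase of ERK, had -0.54 ± 0.19, and Dusp1 0.56 ± 0.31, with 65.6 CPM untreated and 183 CPM with rDKK3 in DDKC_9804. Of the 18, 2 passed in each direction in the unsummed fit, against 6.93% higher and 9.72% lower over all genes.

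Genes known as AP-1 targets had the same order of line medians, -0.35, -0.019 and 0.60, and 3, 6 and 12 of 14 tested genes were higher in DDKC_9750, DDKC_9790 and DDKC_9804. Mmp13, a collagenase, was at 1.60 CPM untreated and 1.84 CPM with rDKK3 in DDKC_9750, at 0.986 and 0.539 CPM in DDKC_9790, and at 1.91 and 18.0 CPM in DDKC_9804. Mmp10, a stromelysin, was at 4.30 and 16.6 CPM in DDKC_9804 and under 1 CPM in the other lines. Plau, the urokinase, was at 9.55 and 2.13 CPM in DDKC_9750, 10.7 and 7.28 CPM in DDKC_9790, and 20.2 and 29.0 CPM in DDKC_9804. In the unsummed fit 2 of the 14 passed as higher and 1 as lower, against 6.93% and 9.72% of all genes. Mmp13, Mmp10 and Plau did not pass there.

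**Figure D4:**
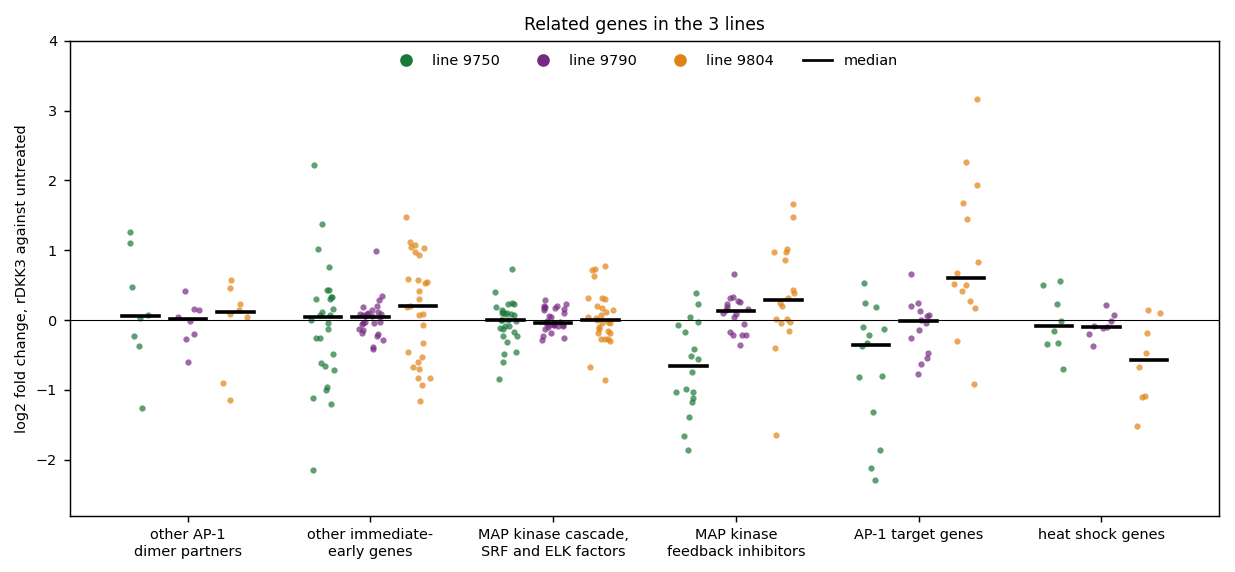
Log2 fold change of rDKK3 against untreated cells (vertical axis) for each tested gene of the 6 lists, by line, with 1 point per gene and a black bar at the list's median. The medians of the feedback inhibitors are -0.65 in DDKC_9750 and 0.28 in DDKC_9804 and those of AP-1 target genes -0.35 and 0.60, while the cascade genes center near 0.

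Values of heat shock genes and cell type markers were set beside those of the members. In DDKC_9804, where Fos was 6.27-fold lower, the median log2 difference of the 8 heat shock genes was -0.58, against -0.079 in DDKC_9750 and -0.096 in DDKC_9790. Hspa1b, an inducible chaperone, was at 13.1 CPM untreated and 4.51 CPM with rDKK3 in DDKC_9804. Hspb1 was lower in every line, with a log2 fold change of -0.72 ± 0.17 (SE), while Hsp90aa1 and Hsph1 had log2 differences of 0.15 and 0.11 in DDKC_9804. Dnajb1 had a log2 fold change of -0.30 ± 0.13 (SE) over the lines. In the unsummed fit 0 of the 8 heat shock genes passed as higher and 2 as lower, against 6.93% and 9.72% of all genes. In DDKC_9750, where Fos was 2.37-fold higher, the summed level of 10 fibroblast markers was 51.1 CPM untreated and 134 CPM with rDKK3, of which Acta2, also a contractile gene of other cells, made up 38.1 and 126 CPM. The fibroblast collagen gene Col1a1 was at 11.2 CPM untreated and 6.69 CPM with rDKK3 there, and Pdgfra at 1.70 and 0.678 CPM. Col3a1, Lum and Thy1 were at 0 in both DDKC_9750 samples and Dcn at most at 0.0969 CPM. The epithelial and ductal sum was lower with rDKK3 in every line, at 5848 and 4357 CPM in DDKC_9750, 9784 and 8085 CPM in DDKC_9790, and 5328 and 4242 CPM in DDKC_9804. The keratins Krt7, Krt8, Krt18 and Krt19, which make up most of it, were lower in every line, whereas Sox9 (108 and 146 CPM, 129.6 and 148 CPM, 299.5 and 392 CPM in the same order) and Muc1 were higher in every line, and Cdh1 in DDKC_9750 and DDKC_9804. The leukocyte sum was higher in every line, at 9.55 and 10.5 CPM, 29.0 and 45.9 CPM, and 10.4 and 17.0 CPM in the same order. It was nearly all Cd68 and Csf1r, with Csf1r at 7.52 and 7.27 CPM in DDKC_9750, and Ptprc and Itgam were at most at 0.0969 CPM in any sample. Endothelial markers lay at 1.23 to 15.3 CPM untreated and 0.872 to 17.4 CPM with rDKK3, and acinar ones at 0.655 to 11.8 and 0.902 to 11.0 CPM. The summed treated sample had a lower total than the untreated one in every line. The part of these values in the results was not tested.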

How the data were processed

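RNA of 3 DDKC lines, untreated or with rDKK3, was sequenced in 12 libraries. The authors prepared strand-specific libraries, aligned read pairs to GRCm39 with STAR 2.7.9a, counted alignments on GENCODE genes by strand, and deposited raw counts per gene without normalization. The tool versions come from the submitters' processing notes, which also name Picard 2.19.2, DESeq2 1.38.0 and R 4.2.2. A further allele that all lines share is not reported here. All 12 value columns were assigned to libraries through their names.

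The members and lists were chosen with earlier results of these data known. The 2 libraries of a line and condition were summed, and edgeR's quasi-likelihood test (edgeR 4.0.16, limma 3.58.1, R 4.3.3) with TMM factors, line as a block and treatment was fitted to the 6 sums over the 15214 genes that edgeR's filter kept, with Benjamini-Hochberg adjustment and a threshold of 0.05. The SE of a log2 fold change is its size divided by the square root of the F statistic of that quasi-likelihood test. The line test covered both line coefficients of the same fit. The line-dependent response was an interaction over 12 libraries with the library number series as a term, which leaves no spread between samples and is given as a value against library noise. Per-line log2 differences used log2 CPM with a prior count of 2, and ratios have exact Poisson 95% intervals. Levels per kilobase and promoter windows used GENCODE M39 gene models on GRCm39, a later release than the authors'. The labels do not say whether libraries came from separate cultures, so p-values measure the spread between these samples.

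Lines pair the samples, since both conditions of a line are the same cells. Deviations from the condition means correlated at 0.802 (DDKC_9750), 0.865 (DDKC_9790) and 0.786 (DDKC_9804) across genes, and at -0.410 between different lines. Such deviations cancel out over the lines of a condition, so positive correlations within lines force negative ones between lines. The value of -0.410 is therefore no separate evidence for the pairing. On simulated counts of 15214 genes, the treatment test recovered 50 of 100 genes changed by a log2 of 1 and 95 of 100 changed by 2, with 4 false calls.

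All 10 members and, from each list, the 3 tested genes farthest from a log2 fold change of 0 are named, where their average log2 CPM is 1 or more, and any list gene past the threshold is named too. Alternatives were unsummed libraries, the series term, no block, DESeq2 1.42.0, RLE factors, other filters on low counts, thinning to the smallest total, a single library series and leaving out each line.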

Additional observations from a re-analysis of the deposited data

Results flagged for a closer look

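All 10 members were picked out because an interaction of line and treatment, measured against the noise between library repeats, had an adjusted p under 0.05 in edgeR, as it had for 61.3% of genes tested. Since each line has 1 sample per condition, a difference between lines was not tested. Fosb was not called without the library number as a term (adjusted p 0.0586 by edgeR), with DESeq2 (0.0709), without DDKC_9750 (0.0752) or without DDKC_9804 (0.324), and Atf3 not without DDKC_9790 (0.311). The log2 fold change spread over the 3 lines by 3.88 for Fos, 2.84 for Fosl1, 1.53 for Atf3, 0.98 for Jun, 0.88 for Fosl2, 0.88 for Egr1, 0.64 for Junb, 0.56 for Fosb, 0.52 for Ier3 and 0.41 for Jund. Fos was 137 CPM in treated DDKC_9750 and 8.12 CPM in treated DDKC_9804 cells, and Fosl1 8.53 and 157 CPM, the reverse order. Outlying samples were not sought in groups of 3 lines.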

How the results depend on the processing

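The count of genes called for treatment depended on how libraries were treated. It was 1 in the summed fit, 2534 with 12 unsummed libraries, 2885 with the library number series added, 96 with DESeq2, 90 without a filter on low counts, 0 with at least 10 counts in every sample, and 0 to 0 when each line was left out. Members called went from 0 to 3 in both unsummed fits. Without the line as a replicate block 0 genes passed, summed or not. The pairing by line changed the sign of Fos (0.27 summed and 0.25 unsummed without the block) and Egr1 (-0.058 and -0.072). For Fosl1 it changed the sign in the summed fit (0.37 without the block) but not in the unsummed one (0.36 without the block). In the unsummed fits the 3 members called with the block, Fosb, Fosl2 and Ier3, were not called without it. With the block, Fosl1 was 9.32e-05 unsummed and 0.0095 with the series added. Leaving out lines gave log2 fold changes of -1.42 to 0.47 for Fos (0.47 without DDKC_9804), -0.77 to 0.56 for Fosl1 (0.56 without DDKC_9750), -0.032 to 0.46 for Jun (-0.032 without DDKC_9750) and -0.15 to 0.27 for Egr1 (-0.15 without DDKC_9790). The other 6 kept their sign in all 14 alternatives, but with lines left out their values ran from 0.13 to 0.94 for Atf3, 0.21 to 0.66 for Fosl2, -0.35 to -0.033 for Junb, -0.25 to -0.047 for Jund, 0.58 to 0.85 for Fosb and -0.53 to -0.28 for Ier3.

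The line effect called 4 members, 7 without the filter and 1 to 5 with a line left out, and 4899 of 15214 genes, 6781 of 29823 without the filter and 1220 to 4753 with a line left out (1220 without DDKC_9790). The interaction, against library noise alone, called 9321 genes, and 5557 to 7660 with a line left out (6204 without DDKC_9750 and 5557 without DDKC_9804). The cause of these shifts was not tested, beyond the fewer samples of fits with a line left out. Depth limits Fosb, Fosl1 and Atf3 in DDKC_9750, where the rDKK3 sample held 69, 88 and 91 counts, and Fos in DDKC_9804, where it held 99.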
